A study of Mus musculus with 28 samples.

Results

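Notch signalling passes between neighbouring cells: a ligand on one cell binds a Notch receptor on the next, proteases release the receptor's intracellular domain, and that domain joins the DNA-binding protein RBPJ to switch on *Hes* and *Hey* genes. In neural stem cells (NSCs) these targets encode repressors that hold back proneural genes, and differentiating neighbours commonly supply the ligands. The 10 genes described here are the ligand genes *Dll1*, *Dll3* and *Jag1*, the receptor genes *Notch1*, *Notch2* and *Notch3*, the target genes *Hes1*, *Hes5* and *Hey1*, and *Hes6*, a *Hes* relative that opposes Hes1 and favours neuronal differentiation. They were taken by symbol from the 28244 genes of a bulk RNA-seq count table, and all 10 were found in it. All 10 also passed the filter on low counts in every comparison.

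The table holds 28 samples of mouse cells in 11 groups and 3 experiments, in which peripheral NSCs (pNSCs), NSC-like lines grown from tissue outside the central nervous system, are set beside brain NSCs. The Nes-GFP experiment has Brain-NSC, Tail-pNSC, Lung-pNSC and the tissue cells Tail and Lung (n = 2 each). Its mice carry GFP under regulatory elements of Nestin, and sorted GFP+ cells from adult lung and postnatal tail gave the pNSCs. The labels of these 5 groups do not name the reporter, and the groups were placed in this experiment from the study's description. The Sox2-GFP experiment has Sox2-GFP brain NSCs and Sox2-GFP lung pNSCs, the latter from sorted GFP+ postnatal lung cells (n = 3 each), and it is compared with the same 2 Lung samples. The Wnt1Cre-mTmG experiment has brain NSCs, Tail pNSCs and DRG pNSCs (DRG, dorsal root ganglia), and DRG NCSCs, which are neural crest stem cells from adult wild-type mice (n = 3 each). Wnt1-Cre with the mTmG reporter turns neural crest progeny green, and the unsorted postnatal tail and DRG cultures gave pNSCs that were red and not green, so outside the crest label. Adult means 4 to 6 weeks and postnatal means days 1 to 5. The labels give the strain of every group as C57BL/6, whereas the study's methods name other backgrounds for wild-type animals. The lines were grown with EGF and bFGF. Each pNSC line started from a single picked cluster, so it can stand for 1 clone, whereas brain NSC lines were grown out of whole dissociated brain. The study's methods name adult or postnatal mice as the source of brain NSCs, without an age for each group. Age may therefore differ between a pNSC group and its brain NSCs. The study calls the replicates biological, but neither it nor the labels say whether they came from separate lines, cultures or mice, so the p-values measure the spread between these samples, which may be technical.

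Totals ran from 9808246 to 22637031 counts per sample. The 6 samples of Wnt1Cre-mTmG brain NSCs and DRG pNSCs, at 9808246 to 11431445 counts, were the shallowest. The third replicate of DRG NCSCs stood apart, with squared differences from the other two that were 16.8 and 21.0 times what counting error alone gives, against at most 2.82 for any other pair of replicates. Results on DRG NCSCs are therefore also given without it. The labels of the groups were checked against 5 genes for each cell type. The NSC genes *Sox2*, *Sox1*, *Olig2*, *Pax6* and *Nes* had counts in every sample of all 8 brain NSC and pNSC groups, with summed levels of 2197 to 3453 cpm, a gene's counts scaled to the size of the library. In DRG NCSCs 4 of them had counts in every sample, and the sum was 1372 to 1738 cpm. Most of that sum was *Nes* (mean 1285 cpm) and *Sox2* (226 cpm). *Olig2* (14.9 cpm), *Pax6* (0.308 cpm) and *Sox1* (0.143 cpm) lay far below Wnt1Cre-mTmG brain NSCs (1114, 33.3 and 44.9 cpm). The neural crest and Schwann genes summed to 3306 to 3408 cpm in DRG NCSCs and to at most 71.7 cpm in any brain NSC or pNSC sample. One label field calls the DRG NCSCs NSCs, and the title was followed.

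The promoters of *Hes5* and *Hes6* are shown because these genes set brain NSCs and pNSCs apart from DRG NCSCs below: *Hes5* had no count in the DRG NCSCs, and *Hes6* was lower there. They are the 250 bases before the RefSeq start, read 5′ to 3′ on the gene's strand (GRCm38.p6). *Hes5* is shown from chr4:154960673-154960922 (plus strand) and *Hes6*, from the more upstream of its RefSeq starts, from chr1:91414039-91414288 (minus strand), and neither stretch overlaps an annotated exon of its gene. Capitals mark TGGGAA, the core of the RBPJ motif, and CAGCTG, an E box of the kind bound by proneural factors, searched on either strand (TTCCCA is the RBPJ core on the other strand).
Hes5: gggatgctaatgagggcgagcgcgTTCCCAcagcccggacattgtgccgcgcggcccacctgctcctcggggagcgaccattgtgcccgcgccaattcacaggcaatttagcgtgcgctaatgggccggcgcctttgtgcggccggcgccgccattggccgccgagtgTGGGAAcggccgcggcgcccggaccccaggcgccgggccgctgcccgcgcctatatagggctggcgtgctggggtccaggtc
Hes6: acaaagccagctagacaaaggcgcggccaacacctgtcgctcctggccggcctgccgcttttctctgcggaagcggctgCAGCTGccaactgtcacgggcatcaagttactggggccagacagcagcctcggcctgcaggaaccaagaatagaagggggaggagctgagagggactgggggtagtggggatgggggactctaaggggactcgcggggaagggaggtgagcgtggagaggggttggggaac

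The *Hes5* stretch holds 2 RBPJ cores, which begin 226 and 82 bases before the start and face opposite ways. Of 8 members with a promoter entry, *Hes5* was the only 1 with this core in the 250 bases, which 21.6% of 32841 promoter entries of that length hold. The *Hes6* stretch holds 1 E box of the form CAGCTG, 171 bases before the start, against 13.0% of all entries. This form was also found before the other *Hes6* start, *Jag1*, *Dll3* and 1 start of *Dll1*. Other forms of the E box were not searched, and 1 of them, CACCTG, occurs in both stretches shown. The N box CACNAG, a motif of Hes repressors, was found before *Notch1*, *Notch2*, *Notch3* and the other *Hes6* start, against 36.7% of all entries. No matches in 1 promoter overlapped. No motif was given a test, and a match describes the letters only.

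Across the 11 groups the members fell into those present everywhere and those that came near 0. *Notch1* had the narrowest range but one, with group means (cpm scaled over all 28 samples) from 277 ± 7.29 (SD, n = 3) in Wnt1Cre-mTmG brain NSCs to 840 ± 4.80 (n = 3) in Wnt1Cre-mTmG Tail pNSCs, and *Notch2* ranged from 75.8 to 209 cpm. *Notch3*, by contrast, ranged from 19.9 cpm in DRG NCSCs to 329 cpm in Wnt1Cre-mTmG Tail pNSCs. *Dll1* ranged from 1.05 cpm in DRG NCSCs to 167 cpm in Sox2-GFP brain NSCs, a ratio of 159. *Dll3* and *Hes5* were also highest in Sox2-GFP brain NSCs, at 119 and 116 cpm, and each had a group without any count. *Jag1* and *Hes1* were highest in Tail cells, at 221 and 121 cpm, *Hey1* in Lung cells at 108 cpm, and *Hes6* in Lung-pNSC at 143 cpm. With DESeq2 size factors *Notch2* was highest in Lung rather than in Wnt1Cre-mTmG Tail pNSCs, and the highest and lowest groups of the other 9 members were as given. Of the 10 steps between neighbours in the order of group means, the samples overlapped in 0 for *Dll3*, 2 for *Hey1*, 4 for *Jag1* and *Hes1*, and 3 for each other member. The 5 pNSC groups and the 3 brain NSC groups were interleaved in these orders.

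**Figure D1:**
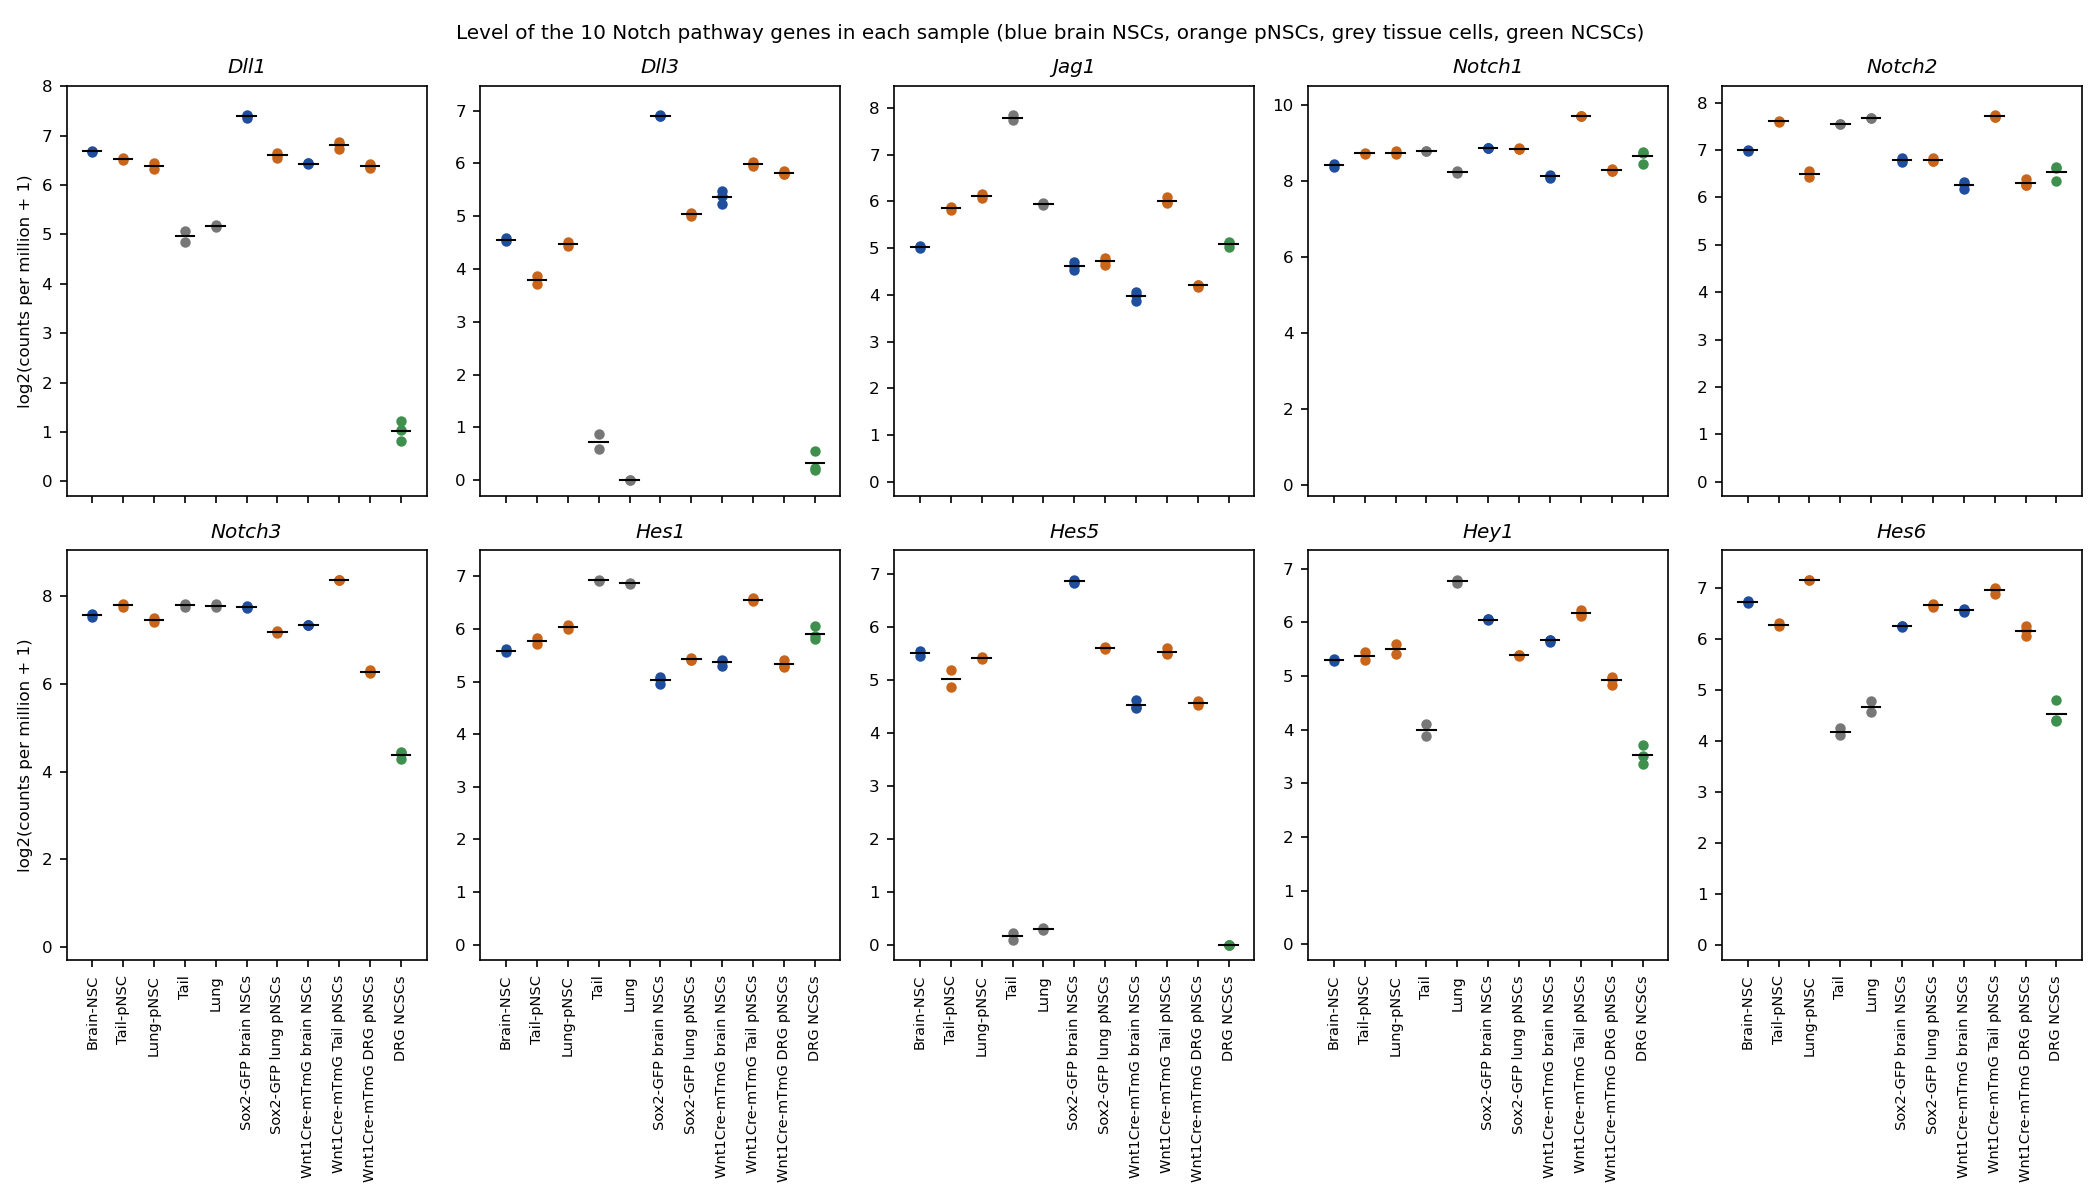
Level of each of the 10 genes in every sample, as log2(cpm + 1) on the y axis, by group on the x axis, with points for samples and horizontal lines for group means. *Dll3* and *Hes5* sit near 0 in Tail, Lung and DRG NCSCs, whereas the 3 receptor genes are present in all 28 samples.

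Levels can be compared between genes only per length, so cpm were divided by the length of the merged exons (GENCODE, GRCm38). Among the 3 receptor genes *Notch1* made up 40.5% ± 0.57 (SD, n = 2) of the summed level in Brain-NSC, 47.2% ± 0.50 (n = 3) in Sox2-GFP brain NSCs and 41.9% ± 0.80 (n = 3) in Wnt1Cre-mTmG brain NSCs. In the pNSCs this share ran from 39.6% in Tail-pNSC to 56.6% in Wnt1Cre-mTmG DRG pNSCs. The *Notch3* share was 24.6% ± 0.68 in the DRG pNSCs and 43.0% ± 0.43 in their brain NSCs. In DRG NCSCs *Notch1* held 71.9% ± 0.98 and *Notch3* 6.36% ± 1.0. These shares varied among the NSC and pNSC groups, and those of DRG NCSCs lay outside the range of all 8. Among the ligand genes *Jag1* held 94.4% ± 1.7 in DRG NCSCs and 83.7% ± 0.76 in Tail cells, but between 4.76% and 30.2% in brain NSCs and pNSCs, where *Dll1* and *Dll3* made up the rest. Among *Hes1*, *Hes5* and *Hey1*, *Hes5* held from 31.5% to 70.4% in the 8 brain NSC and pNSC groups and at most 0.190% in Tail, Lung and DRG NCSCs. These shares are descriptions and were not tested.

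**Figure D2:**
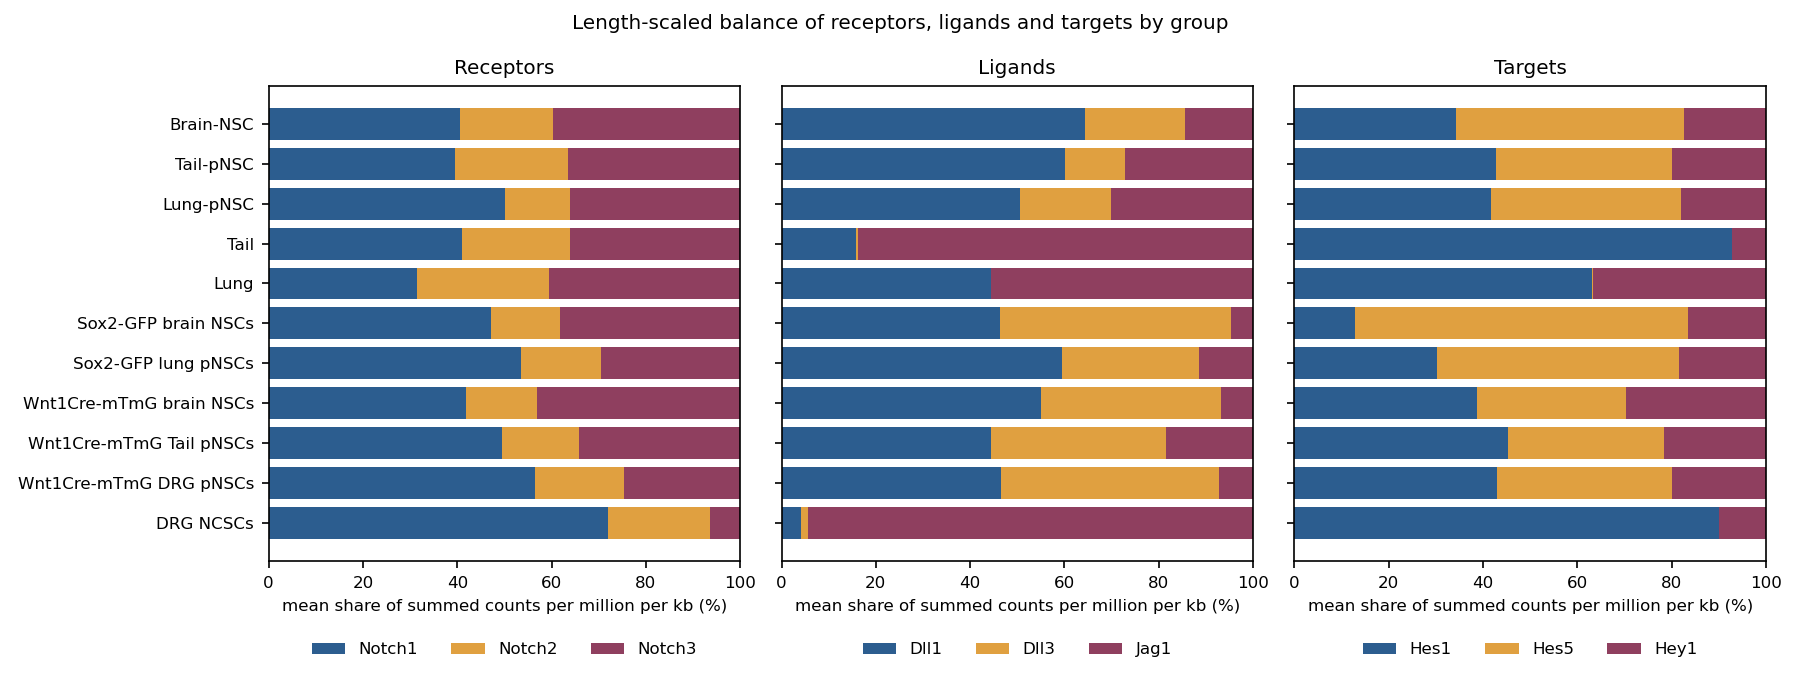
Mean share (%) of each gene in the summed cpm per kb of the receptors, the ligands and the targets, by group. The *Jag1* share is largest in DRG NCSCs (94.4%) and Tail (83.7%), and *Hes5* takes at most 0.190% in the tissue cells and DRG NCSCs.

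Each pNSC group was first compared with the brain NSCs of its own experiment. A gene is called higher or lower here when edgeR's quasi-likelihood test gave a Benjamini-Hochberg adjusted p under 0.05 over all genes tested and the change was at least 2-fold, and comparisons within an experiment share the same brain NSC samples. In bulk RNA, fewer cells expressing a gene and less RNA per cell cannot be told apart.

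In Tail-pNSC none of the 10 members was called against Brain-NSC, where 10.9% of 16948 genes were. At an adjusted p under 0.05 alone, 9 of the 10 differed (49.1% of all genes did), so the count of 0 rests on the 2-fold limit. *Jag1*, which encodes a ligand of the Serrate type, had 55.7 and 58.0 cpm in Tail-pNSC and 31.0 and 32.1 cpm in Brain-NSC. The groups did not overlap, and the log2 fold change of 0.85 ± 0.059 (SE) fell short of the limit. *Dll3*, a divergent ligand that inhibits Notch within its own cell, had 12.2 and 13.6 cpm against 22.0 and 23.0 cpm, a log2 fold change of -0.80 ± 0.11. *Notch2* (0.62), *Notch1* (0.32), *Notch3* (0.23) and *Hes1* (0.19) had positive log2 fold changes, and *Hes5* (-0.49), *Hes6* (-0.44) and *Dll1* (-0.16) negative ones. *Hey1* gave 0.07 ± 0.068 (adjusted p = 0.41, edgeR). The members' median log2 fold change was 0.13 and that of all genes 0.00. Neuron genes summed to 19.8 to 20.6 cpm in Tail-pNSC against 31.3 to 31.4 cpm in Brain-NSC with *Stmn2* at 0 in both, neural crest and Schwann genes to 3.77 to 3.85 cpm against 9.84 to 9.99 cpm with *Foxd3* at 0 in both, and smooth muscle and pericyte genes to 46.3 to 50.2 cpm against 35.2 to 36.1 cpm. Their part in the result was not tested.

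In Lung-pNSC, *Jag1* was the only member called against Brain-NSC, with 8.71% of all genes called and 4.56% called higher. At the adjusted p alone 8 members differed, as did 40.3% of all genes. *Jag1* had 70.8 and 66.0 cpm against 31.0 and 32.1 cpm, a log2 fold change of 1.11 ± 0.057 (edgeR, adjusted p = 1.25e-82). Both Lung-pNSC samples lay above both brain samples. Below the limit, *Hes1* (0.45), *Hes6* (0.43), *Notch1* (0.33) and *Hey1* (0.20) had positive log2 fold changes with adjusted p under 0.05, and *Notch2* (-0.50), *Dll1* (-0.30) and *Notch3* (-0.12) negative ones. *Hes5*, the target most used as a readout of Notch activity in NSCs, had 42.0 and 41.1 cpm against 45.9 and 42.9 cpm, and *Dll3* gave a log2 fold change of -0.09 ± 0.098. Neither passed the test (adjusted p = 0.27 and 0.53, edgeR). The median was 0.06 for the members and 0.00 for all genes. Smooth muscle and pericyte genes summed to 1.73 to 3.32 cpm in Lung-pNSC against 35.2 to 36.1 cpm in Brain-NSC, and neuron genes to 12.9 to 13.6 cpm against 31.3 to 31.4 cpm, with *Stmn2* at 0 in both groups. What part these marker genes have in the result was not tested.

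Sox2-GFP lung pNSCs differed from their brain NSCs in another direction. *Dll3* fell to 30.9, 32.5 and 31.7 cpm from 118, 119 and 119 cpm, a log2 fold change of -1.90 ± 0.038 whose adjusted p was too small to represent. *Hes5* fell to 47.4, 48.5 and 46.8 cpm from 118, 113 and 115 cpm, a log2 fold change of -1.28 ± 0.035 (edgeR, adjusted p = 1.70e-284). In both genes the groups lay far apart, and these 2 were the members called, with 15.7% of all genes called and 9.99% called lower. At the adjusted p alone 7 members differed, as did 65.5% of all genes. *Dll1*, a ligand that activates Notch on neighbouring cells, gave -0.79 ± 0.028 on the log2 scale, *Hey1* -0.68 and *Notch3* -0.58, and *Hes1* and *Hes6* both gave 0.41. *Notch1*, *Notch2* and *Jag1* did not pass the test, with log2 fold changes of -0.03, 0.00 and 0.10. The members' median was -0.30 and that of all genes 0.00. The summed neural crest and Schwann genes moved with these falls, from 67.0 to 71.7 cpm in the brain NSCs to 10.2 to 10.97 cpm in the pNSCs, and the neuron genes from 71.7 to 76.9 cpm to 11.9 to 12.4 cpm, with *Foxd3* at 0 in the brain NSCs. Their part in the result was not tested.

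Wnt1Cre-mTmG Tail pNSCs had higher levels of 6 members than their brain NSCs, in a comparison in which 18.2% of 14448 genes were called and 9.16% were called higher. *Jag1* rose to 66.8, 62.6 and 61.3 cpm from 13.5 to 15.8 cpm (log2 fold change 2.11 ± 0.066, edgeR adjusted p = 1.78e-14). All 3 receptor genes rose: *Notch1* by 1.61 ± 0.060 on the log2 scale, from 270 to 284 cpm up to 834 to 844 cpm, *Notch2* by 1.46 ± 0.062, and *Notch3* by 1.03 ± 0.038. Of the targets, *Hes1* had 93.7, 91.0 and 95.1 cpm against 38.4, 41.2 and 41.7 cpm (1.21 ± 0.065) and *Hes5* 44.7, 44.3 and 47.6 cpm against 21.2, 21.4 and 23.6 cpm (1.05 ± 0.066). No Tail pNSC sample overlapped a brain sample in any of these 6 genes. *Dll3* (0.64), *Hey1* (0.52), *Hes6* (0.41) and *Dll1* (0.38) had an adjusted p under 0.05 and less than a 2-fold change, so all 10 members passed the p alone, which 65.5% of all genes did. The members' median log2 fold change was 1.04, and that of all genes 0.00. Fibroblast genes moved in the same direction, summing to 372 to 383 cpm in the Tail pNSCs and 10.3 to 12.2 cpm in the brain NSCs, with counts for all 5 in every sample of both. Smooth muscle and pericyte genes summed to 57.9 to 59.6 cpm against 10.4 to 12.4 cpm, with *Des* at 0 in the brain NSCs, and neuron genes to 57.7 to 58.9 cpm against 26.3 to 27.2 cpm. Endothelial genes summed to at most 3.59 cpm. What part these marker genes have in the result was not tested.

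Wnt1Cre-mTmG DRG pNSCs lay closer to the same brain NSCs. *Notch3* was the member called, with 9.53% of all genes called and 6.41% called lower: it fell to 76.8, 79.0 and 74.6 cpm from 161, 162 and 162 cpm, a log2 fold change of -1.07 ± 0.042 (edgeR, adjusted p = 1.46e-12). *Hey1* gave -0.76 ± 0.074, *Hes6* -0.40 and *Dll3* 0.46, all with adjusted p under 0.05. *Jag1* (0.23) and *Notch1* (0.16) passed that p more narrowly, at 0.027 and 0.035 in edgeR. *Hes5* had 22.8, 23.2 and 22.2 cpm against 21.2, 21.4 and 23.6 cpm, so the groups overlapped, and it did not pass the test, nor did *Hes1*, *Dll1* or *Notch2*. The p alone was passed by 6 members and 45.9% of all genes. The median was -0.0011 for the members and 0.01 for all genes. Neural crest and Schwann genes moved with *Notch3*, summing to 6.40 to 7.03 cpm in the DRG pNSCs, with 3 of 5 counted in every sample, against 22.0 to 22.9 cpm in the brain NSCs. Fibroblast genes summed to 15.1 to 16.9 cpm against 10.3 to 12.2 cpm, but they did not move together. *Col3a1* was higher in the DRG pNSCs (15.1 against 4.19 cpm). *Col1a1* (0.980 against 2.82 cpm), *Col1a2* (0.0641 against 3.45 cpm) and *Dcn* (0.0649 against 0.503 cpm) were lower. Their part in the result was not tested.

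The astrocyte genes summed lower in each pNSC group than in its brain NSCs: 1265 to 1314 cpm in Tail-pNSC and 1947 to 1974 cpm in Lung-pNSC against 2397 to 2500 cpm, and 1493 to 1508 cpm in Sox2-GFP lung pNSCs against 2843 to 2867 cpm. In Wnt1Cre-mTmG cells they summed to 2269 to 2288 cpm in Tail pNSCs and 1048 to 1064 cpm in DRG pNSCs against 2543 to 2569 cpm, with counts for all 5 genes in every sample. Their part in the results was not tested.

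**Figure D3:**
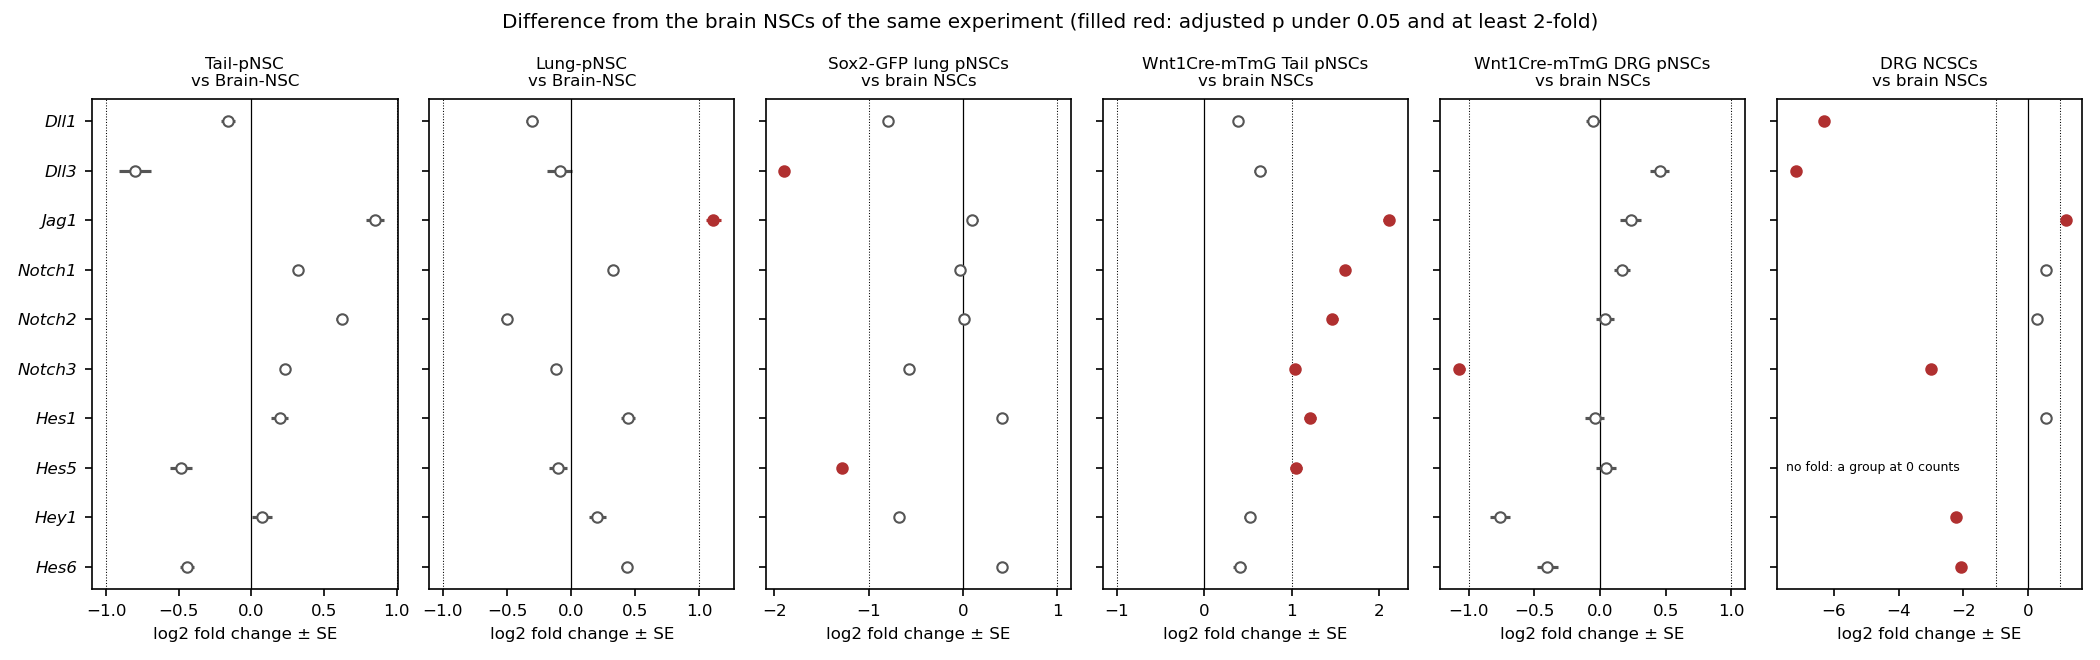
Log2 fold change ± SE (x axis, each panel with its own range) of each gene against the brain NSCs of the same experiment, with filled red points for genes called. Wnt1Cre-mTmG Tail pNSCs have 6 called genes, all higher, and DRG NCSCs have 7 called genes, of which *Hes5* is not drawn because a group at 0 counts gives no fold.

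The brain NSC groups themselves were not alike. Between their lowest and highest means *Dll3* differed 5.27-fold (22.5 cpm in Brain-NSC, 119 cpm in Sox2-GFP brain NSCs), *Hes5* 5.25-fold (22.0 cpm in Wnt1Cre-mTmG brain NSCs) and *Jag1* 2.13-fold, and the other 7 members less than 2-fold. Of 11703 genes with at least 1 cpm in each brain group, 19.6% differed at least 2-fold. Between the 5 pNSC groups the range was 1.35-fold for *Dll1* and 4.85-fold for *Dll3*. The brain NSC line and the experiment cannot be told apart in these ranges, and no test was made.

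An interaction term in an edgeR model of the 28 samples asked whether pNSCs from one tissue departed from brain NSCs by the same amount in different experiments. The log2 fold change of Tail pNSCs over brain NSCs was more positive in Wnt1Cre-mTmG than in Nes-GFP cells for 5 members, where 16% of 17393 genes were called and 8.96% called with a positive difference. All 10 members passed the p alone, as did 48.7% of all genes. The difference in log2 fold change was 1.53 ± 0.10 for *Hes5*, 1.44 ± 0.11 for *Dll3*, 1.29 ± 0.072 for *Notch1*, 1.25 ± 0.096 for *Jag1* and 1.01 ± 0.085 for *Hes1* (edgeR adjusted p from 7.83e-18 for *Notch1* to 8.07e-13 for *Hes1*). *Hes1* lay at the 2-fold limit and fell below it, to between 0.95 and 0.999, when any of 5 samples was left out. These were the first replicates of Tail-pNSC, Brain-NSC and Wnt1Cre-mTmG brain NSCs, and the first and the third of Wnt1Cre-mTmG Tail pNSCs. The log2 fold change of lung pNSCs over brain NSCs was lower in Sox2-GFP than in Nes-GFP cells for *Dll3* (-1.90 against -0.08, a difference of -1.82 ± 0.098), *Hes5* (-1.28 against -0.09, -1.19 ± 0.086) and *Jag1* (0.10 against 1.12, -1.02 ± 0.088). In this test 14.1% of genes were called and 8.24% called with a negative difference. The p alone was passed by 8 members and 46.9% of all genes. *Hey1* gave -0.89, and -1.02 without the first Lung-pNSC replicate. For *Hes1* and *Hes6* the lung effects differed by -0.04 ± 0.084 and -0.03 ± 0.082. The brain NSCs that serve as reference differed too: *Dll3* had 22.5 cpm in Brain-NSC, 40.2 cpm in Wnt1Cre-mTmG and 119 cpm in Sox2-GFP brain NSCs, and *Hes5* 44.4, 22.0 and 116 cpm. The differences therefore hold that of the reference as well as that of the pNSCs, and the lung pNSCs also differ in the age of the mice. These parts cannot be told apart.

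**Figure D4:**
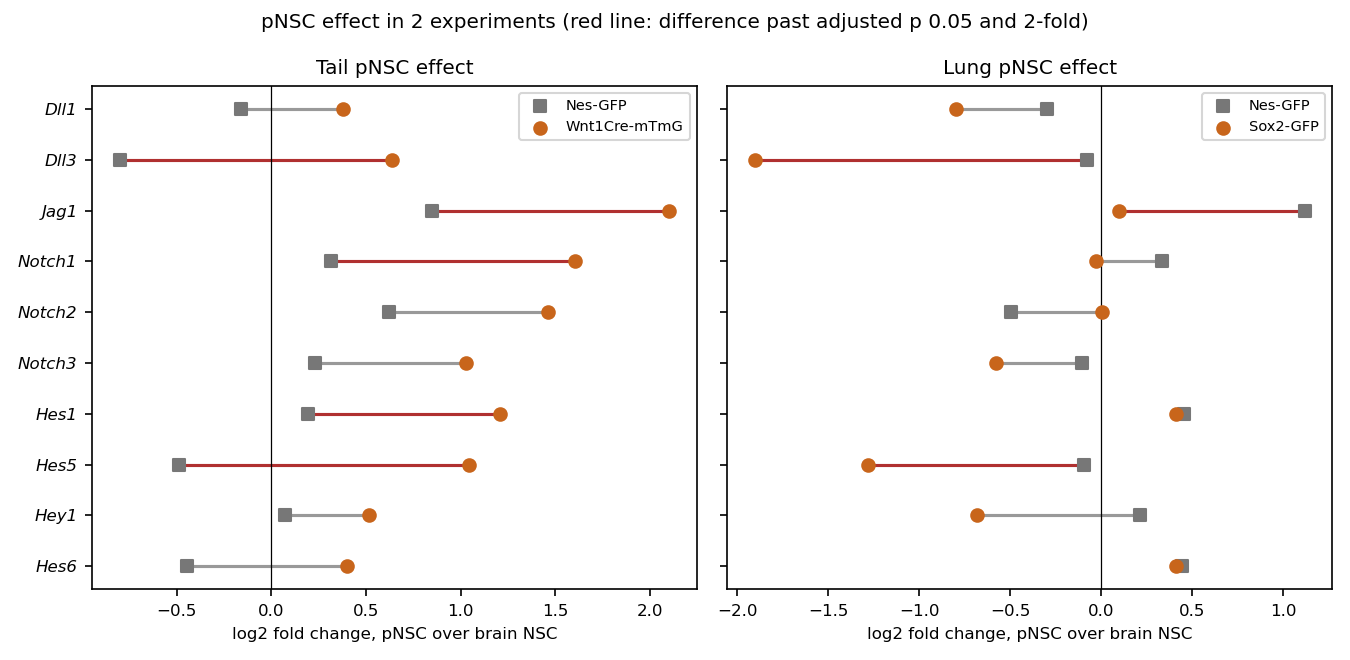
Log2 fold change of pNSCs over brain NSCs (x axis) in 2 experiments for tail (left) and lung (right), with a line joining the 2 effects of each gene. Red lines mark differences past the adjusted p and the 2-fold limit, 5 genes for tail and 3 for lung.

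DRG NCSCs served as the neural crest comparison. They came from wild-type mice and the brain NSCs from Wnt1Cre-mTmG mice, so genotype cannot be told apart from cell type. Against Wnt1Cre-mTmG brain NSCs, 7 members were called, 6 of them lower, where 36.9% of genes were called, 22.1% higher and 14.8% lower. All 10 members and 81.7% of all genes passed the p alone. *Hes5* had 0 counts in each of the 3 NCSC samples and was at least 145-fold lower than in the brain NSCs, taking 3 counts per library as the floor. *Dll3*, at 3, 10 and 3 counts, fell by 7.18 on the log2 scale, and *Dll1*, at 23, 28 and 13 counts, fell by 6.30. *Notch3* had 20.6, 18.4 and 20.8 cpm and a log2 fold change of -3.01 ± 0.047, *Hey1* -2.22 ± 0.079 and *Hes6* -2.06 ± 0.085. No NCSC sample overlapped a brain NSC sample in these 6 genes. *Jag1* was the 1 member called higher, by 1.18 ± 0.070 (edgeR adjusted p = 3.85e-11), and *Hes1* (0.56), *Notch1* (0.55) and *Notch2* (0.29) stayed under 2-fold. The members' median was -2.14 and that of all genes 0.01. Without the third NCSC replicate 7 members were called as before, with *Jag1* at 1.20 and *Dll3* at -7.00.

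Other cell types' genes moved with this comparison. In DRG NCSCs the fibroblast genes summed to 2875 to 3507 cpm, the neuron genes to 587 to 598 cpm and the leukocyte genes to 543 to 573 cpm, with *Cd3e* at 0. In the brain NSCs the same lists summed to at most 12.2, 27.2 and 2.96 cpm. The astrocyte genes moved the other way, to 141 to 172 cpm in DRG NCSCs from 2543 to 2569 cpm in the brain NSCs, and so did the NSC genes, to 1372 to 1738 cpm from 3171 to 3214 cpm. *Nes* and *Sox2* made up most of the NSC sum in DRG NCSCs, whereas *Pax6* and *Sox1* were near 0 there. What part these marker genes have in the result was not tested.

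Against DRG NCSCs, the Wnt1Cre-mTmG Tail pNSCs had 8 members called, all higher (37.9% of genes called, 15.3% called higher), and the Wnt1Cre-mTmG DRG pNSCs 6, all higher (38.3% and 15.1%). Both comparisons share the NCSC samples. These came from adult wild-type mice, and the pNSCs from postnatal Wnt1Cre-mTmG mice. Age and genotype therefore cannot be told apart from cell type in these comparisons. *Dll3* was higher by 7.82 and 7.64 on the log2 scale, *Dll1* by 6.68 and 6.25, *Notch3* by 4.04 and 1.94, *Hey1* by 2.74 and 1.46, and *Hes6* by 2.47 and 1.66, in tail and DRG pNSCs respectively. *Hes5* was at least 299.7-fold higher in the tail pNSCs and at least 149.8-fold higher in the DRG pNSCs. *Notch2* (1.17) and *Notch1* (1.06) were called in the tail pNSCs, but without the third NCSC replicate *Notch1* gave 0.96 and 7 members were called. *Jag1* pointed in opposite directions, 0.93 and -0.94, as did *Hes1*, 0.65 and -0.60, all under 2-fold with adjusted p under 0.05. All 10 members passed the p alone in both comparisons, as did 83.6% and 82.4% of all genes. The medians of the members were 2.60 and 1.56 and those of all genes -0.0020 and -0.0035. Without the third NCSC replicate the DRG pNSCs had 6 members called, as before.

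The pNSCs were also set against the cells of their tissue of origin, where roughly as many genes as not were called. In Tail-pNSC against Tail, 5 members were called higher and 2 lower (46.7% of genes called, 14.1% higher and 32.6% lower). At the p alone 9 members and 82.9% of all genes differed. *Hes5* had 618 and 557 counts in Tail-pNSC and 3 and 1 counts in Tail, a ratio of 266 with a 95% exact Poisson interval of 104 to 976 for the counts in Tail. *Dll3* was higher by 4.20 ± 0.23, *Hes6* by 2.08 and *Hey1* by 1.34 on the log2 scale, *Dll1* was 2.84-fold higher, and *Jag1* was lower at -2.04 ± 0.046 and *Hes1* at -1.25 ± 0.050. The receptor genes differed least, with *Notch1* at -0.14, *Notch3* at -0.08 and *Notch2* at -0.03. The *Notch2* and *Notch3* values change sign under another scaling or fit. The members' median was 0.65 and that of all genes -0.16.

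In the lung, *Dll3* had 0 counts in both tissue samples, and was at least 122-fold higher in Lung-pNSC and at least 181-fold higher in Sox2-GFP lung pNSCs. Both comparisons share the Lung samples, which belong to the Nes-GFP experiment. With Sox2-GFP lung pNSCs, which came from postnatal mice, the difference between experiments cannot be told apart from that between the cells. With Lung-pNSC 6 members were called, 4 higher and 2 lower (55% of genes, 20.2% higher and 34.9% lower), and with Sox2-GFP lung pNSCs 7, 4 higher and 3 lower (56.3%, 21.3% and 34.9%). All 10 members passed the p alone in both, as did 86% and 90.8% of all genes. *Hes5* was higher by 7.41 ± 0.20 and 7.62 ± 0.16, *Hes6* by 2.50 and 2.02, and *Dll1* by 1.21 and 1.44. *Hey1*, a target with a role in vessels, was lower in both, at -1.32 and -1.42, and had 105 and 110 cpm in Lung. *Notch2* was called lower in Lung-pNSC (-1.22), and *Hes1* (-1.49) and *Jag1* (-1.28) in Sox2-GFP lung pNSCs. *Jag1* gave 0.14 in Lung-pNSC, a sign that turns when only genes with a mean count of at least 100 are kept. The members' medians were 0.31 and -0.02 and those of all genes -0.15 and -0.12. Endothelial genes summed to 3923 to 4015 cpm in Lung, 919 to 941 cpm in Tail and at most 6.79 cpm in the pNSC groups of these comparisons. Epithelial and keratinocyte genes summed to 24955 to 25510 cpm in Lung and 3901 to 3998 cpm in Tail, and fibroblast genes to 71866 to 73768 cpm in Tail. Their part in the results was not tested.

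**Figure D5:**
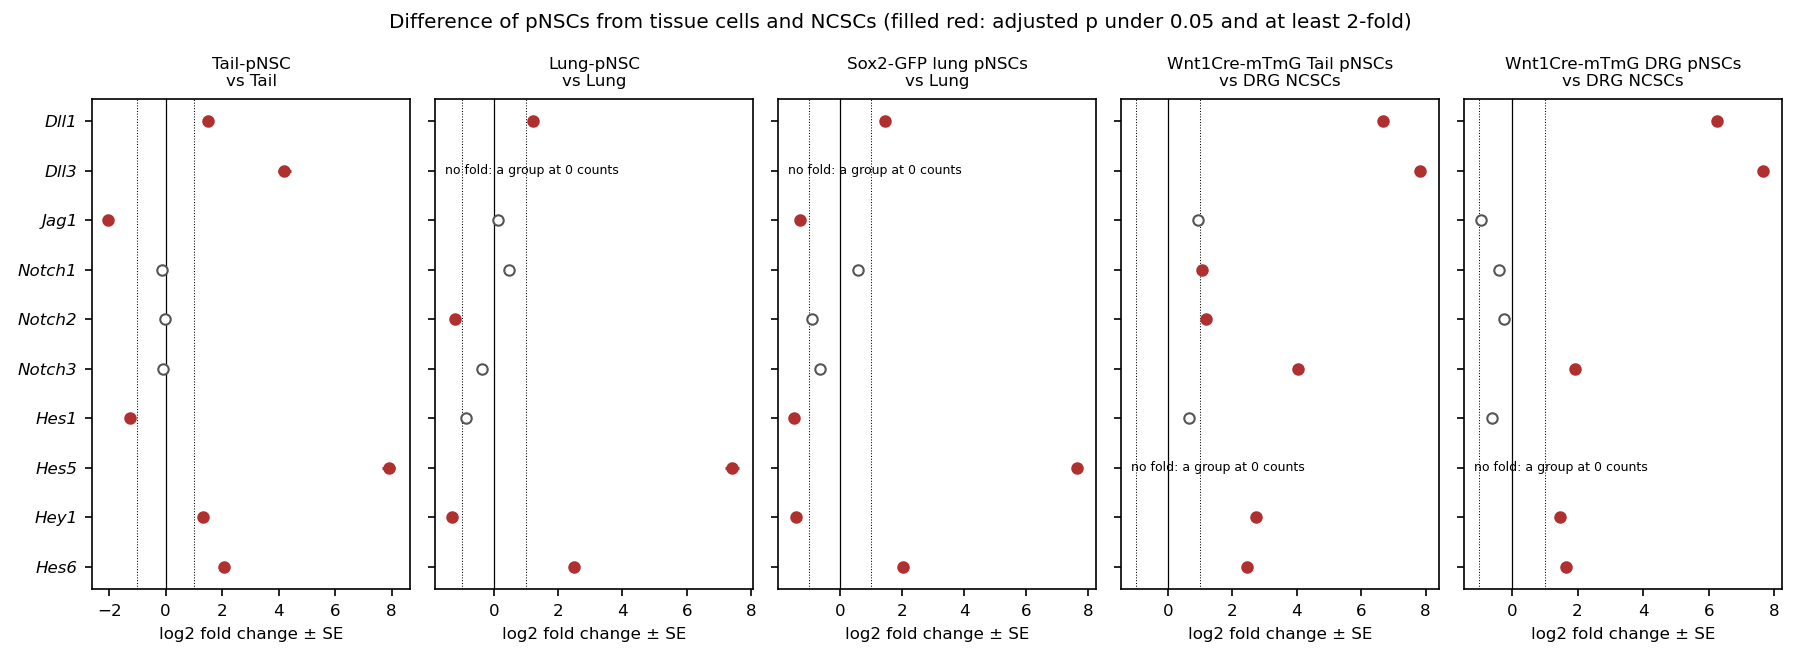
Log2 fold change ± SE (x axis, each panel with its own range) of the pNSC groups against tissue cells and DRG NCSCs, with filled red points for genes called. *Hes5*, *Dll3*, *Dll1* and *Hes6* lie on the higher side wherever a fold is drawn, and *Jag1* and *Hes1* do not.

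The rest of the pathway was read from a list of 47 other genes: ligands, 1 receptor, glycosyltransferases that modify receptors, proteases, nuclear partners of RBPJ, targets, and genes of ubiquitination and endocytosis. Against brain NSCs, 3 were called higher and 6 lower in Tail-pNSC, 19.6% of the 46 tested where 10.9% of all genes were called. In Lung-pNSC 2 and 2 were called, 8.7% of 46 against 8.71%, in Sox2-GFP lung pNSCs 1 and 7, 17% of 47 against 15.7%, and in Wnt1Cre-mTmG DRG pNSCs 3 and 1, 8.89% of 45 against 9.53%, so these 3 shares lay near those of all genes. In Wnt1Cre-mTmG Tail pNSCs 8 and 3 were called, 24.4% of 45 against 18.2%, and in DRG NCSCs 15 and 12, 60% of 45 against 36.9%. Against tissue cells the counts were 6 and 17 for Tail-pNSC (50% against 46.7% of all genes), 5 and 13 for Lung-pNSC (39.1% against 55%) and 4 and 13 for Sox2-GFP lung pNSCs (36.2% against 56.3%). Against DRG NCSCs they were 11 and 10 for the Tail pNSCs (46.7% against 37.9%) and 11 and 13 for the DRG pNSCs (53.3% against 38.3%). Against brain NSCs, the list's median log2 fold change was -0.01 in Tail-pNSC, 0.02 in Lung-pNSC, -0.27 in Sox2-GFP lung pNSCs, 0.11 and -0.05 in Wnt1Cre-mTmG Tail and DRG pNSCs and 0.15 in DRG NCSCs, beside medians of all genes between 0.00 and 0.01.

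*Maml3*, which encodes a coactivator that binds the Notch and RBPJ complex, was called higher in all 6. It rose from 0.399 ± 0.082 cpm in Brain-NSC to 6.49 ± 0.21 cpm in Tail-pNSC and 4.89 ± 0.67 cpm in Lung-pNSC (n = 2 each). It also rose from 2.33 ± 0.15 to 6.20 ± 0.62 cpm in the Sox2-GFP lung pNSCs. From 1.48 ± 0.37 cpm in Wnt1Cre-mTmG brain NSCs it rose to 19.1 ± 1.3 cpm in the Tail pNSCs, 3.60 ± 0.54 cpm in the DRG pNSCs and 40.6 ± 6.1 cpm in the NCSCs. Tail and Lung cells had more, at 49.7 ± 5.2 and 48.6 ± 0.44 cpm, and it was called lower in the pNSCs against them.

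*Dlk1*, a non-canonical ligand, had 1 count over both Brain-NSC samples and 3.10 ± 0.38 cpm in Tail-pNSC, a ratio of 125 with a 95% interval of 22.4 to 4934 from counting. Lung-pNSC had 1.19 ± 0.26 cpm, a ratio of 47.9 with an interval of 8.60 to 1892. In the Sox2-GFP experiment it did not pass the test, with 1.34 ± 0.34 cpm in lung pNSCs and 1.28 ± 0.17 cpm in brain NSCs. In Wnt1Cre-mTmG cells it was 0.910 ± 0.45 cpm in brain NSCs, 14.8 ± 0.74 cpm in Tail pNSCs (log2 fold change 4.04 ± 0.18) and 2.35 ± 0.073 cpm in DRG pNSCs (1.38 ± 0.28), and in DRG NCSCs it was 8.77 ± 0.35 cpm (3.28 ± 0.19). *Dtx1*, a Deltex ubiquitin ligase, was lower in Tail-pNSC (-2.40), Sox2-GFP lung pNSCs (-1.25) and DRG NCSCs (-6.82), and *Dtx4*, another Deltex gene, was lower in Sox2-GFP lung pNSCs (-1.77). *Heyl*, a target gene related to *Hey1*, was higher in Wnt1Cre-mTmG Tail pNSCs (3.19 ± 0.64 cpm against 0.178 ± 0.086 cpm, which is 6 counts over 3 brain samples) and in DRG NCSCs (83.8 ± 11 cpm). In Lung-pNSC, *Dtx3l* (-1.08) and *Mfng*, a Fringe glycosyltransferase (-1.07), were lower, and in the DRG pNSCs *Aph1c*, a subunit gene of the gamma-secretase protease, was higher (1.37).

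The genes whose group means followed each member most closely were found by Pearson's r of log2(cpm + 1) over the 11 groups, among genes outside the list of members. For *Hes5* they were *Pax6* (r = 0.990), *Erbb4* (0.988) and *2810459M11Rik* (0.985). For *Dll3* they were *1500009C09Rik* (0.982), *Smoc1* (0.980) and *Mfap3* (0.978), and for *Hes6* *Ppargc1a* (0.985), *1700040D17Rik* (0.980) and *Nxph1* (0.979). For *Dll1* they were *Zfp827* (0.971), *Ccdc88c* (0.961) and *Ccdc28b* (0.961). Tail, Lung and DRG NCSCs hold the 3 lowest means of all 4 of these members, and the r values are descriptions with no test. For *Hes1* the nearest genes were *Ablim1* (0.966), *Fam167a* (0.905) and *Dkk3* (0.904), for *Hey1* *Gstm1* (0.942), *Ralgapa2* (0.934) and *Caps2* (0.933), and for *Jag1* *Dus3l* (0.925), *Airn* (0.912) and *Ybx2* (0.905). For the receptor genes r was at most 0.941, with *Plcg1* for *Notch3*, 0.907 with *Prrg3* for *Notch2* and 0.903 with *BC048644* for *Notch1*. Among the members themselves, *Hes5* followed *Dll3* (r = 0.947) and *Hes6* (0.928), and *Jag1* followed *Hes1* (0.851), whereas *Dll3* and *Hes1* ran opposite (-0.692). The 11 groups are not independent, since several come from 1 experiment.

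On GRCm38, *Hes5* lies at chr4:154960923-154962371 and *Hes6* at chr1:91411483-91414038, and *Dll3* at chr7:28293553-28302238 and *Jag1* at chr2:137081456-137116644. *Notch1* (chr2:26457903-26516663), *Notch3* (chr17:32120820-32166852), *Dll1* (chr17:15367354-15376872) and *Hes5* have an annotated gene on the opposite strand within their bounds, and *Notch1* and *Notch2* (chr3:98013527-98150361) one on the same strand. Whether counting used strand is not given in the sources used here, so reads of these pairs may not be separable. *Hes1* (chr16:30064384-30067796) and *Hey1* (chr3:8663359-8667256) overlap no other annotated gene.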

How the data were processed

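PolyA RNA was sequenced in 28 samples. Per the labels, the authors used HISAT2, Cufflinks and HTSeq with GRCm38, and the deposited values are raw read counts per gene. The strand setting and annotation release are not given in the sources used here. Groups followed the sample titles. Counts were analysed in R 4.3.3 with edgeR 4.0.16 (TMM scaling, filterByExpr with a minimum count of 10 and minimum total of 15, quasi-likelihood test, Benjamini-Hochberg adjustment), in 1 fit per experiment, and called at an adjusted p under 0.05 and a 2-fold change. Printed cpm were scaled over all 28 samples, so a ratio of means can differ slightly from the fitted fold. Totals of 9808246 to 22637031 counts make 3 counts equal 0.130 to 0.296 cpm. Intervals and floors cover counting error only. The fits were tested on simulated data.

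The members, the 47 pathway genes and the marker lists were chosen with earlier results of these data known. Beside the members, the text names by rule the 3 called pathway genes of largest change with a mean of at least 1 cpm in each comparison with brain NSCs, the 3 genes nearest each member in pattern, of which 1 is given for each receptor, and marker genes. Alternatives were DESeq2 1.42.0, DESeq2 size factors, upper-quartile scaling, no filter, a mean count of at least 100, no fold limit, only the groups compared, all 28 samples, replicate number as a block, and leaving out each sample. RefSeq promoters matched 8 of the 10 members, all but *Hes1* and *Hey1*. Figures were drawn with Python 3.11.15.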

Additional observations from a re-analysis of the deposited data

Results flagged for a closer look

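The pNSC effect differed between experiments, by the edgeR interaction test, for 8 combinations of gene and tissue. For tail, Wnt1Cre-mTmG minus Nes-GFP, the log2 difference was 1.29 for *Notch1*, 1.44 for *Dll3*, 1.25 for *Jag1*, 1.01 for *Hes1* and 1.53 for *Hes5*. For lung, Sox2-GFP minus Nes-GFP, it was -1.82 for *Dll3*, -1.02 for *Jag1* and -1.19 for *Hes5*. *Dll3* and *Hes5* had opposite signs in the 2 tail effects, with 0.64 and 1.04 in Wnt1Cre-mTmG and -0.80 and -0.49 in Nes-GFP. Groups of 2 or 3 samples are too small to judge single outlying values, so these were not flagged. How far whole replicates lay from each other is given with the samples above.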

How the results depend on the processing

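Without a limit on the fold change, the members called were 9 in Tail-pNSC and 8 in Lung-pNSC against Brain-NSC, 10 in Lung-pNSC against Lung, 10 in Wnt1Cre-mTmG Tail pNSCs and 6 in DRG pNSCs against brain NSCs, 10 in DRG pNSCs against DRG NCSCs, 7 in Sox2-GFP lung pNSCs against brain NSCs, and 10 and 8 for the tail and lung interactions. In the order Tail-pNSC and Lung-pNSC against Brain-NSC, Tail-pNSC against Tail, Lung-pNSC against Lung, Wnt1Cre-mTmG Tail and DRG pNSCs and DRG NCSCs against brain NSCs, Wnt1Cre-mTmG Tail and DRG pNSCs against NCSCs, Sox2-GFP lung pNSCs against brain NSCs and Lung, and the tail and lung interactions, all genes called without that limit numbered 8318, 6835, 14042, 14582, 9460, 6634, 11804, 12076, 11903, 10636, 14736, 8466 and 8151. With a mean count of at least 100, which tests fewer genes, they numbered 1106, 842, 4775, 5803, 1457, 679, 3174, 3255, 3291, 1487, 5581, 1780 and 1566. Signs turned only for values near 0: *Notch2* in Tail-pNSC against Tail (0.021 with upper-quartile scaling, 0.056 with all 28 samples) and *Notch3* there (0.0028 with all 28), *Jag1* in Lung-pNSC against Lung (-0.0046 at a mean count of 100), and *Notch2* in Sox2-GFP lung pNSCs against brain NSCs (-0.056 with upper-quartile scaling, -0.018 at a mean count of 100, -0.0052 with only the groups compared). Leaving out 1 sample each gave -0.0042 to 0.15 for *Hey1* in Tail-pNSC against Brain-NSC, and for *Notch2* -0.0030 to 0.071 in DRG pNSCs and -0.019 to 0.027 in Sox2-GFP lung pNSCs against brain NSCs. The cause was not tested. At a mean count of 100, *Hes1* in Lung-pNSC against Lung (-1.03), *Jag1* in DRG pNSCs against DRG NCSCs (-1.01) and *Notch2* in Sox2-GFP lung pNSCs against Lung (-1.08) passed the 2-fold limit. With replicate number as a block, the members called were 0 in Tail-pNSC and 6 in Wnt1Cre-mTmG Tail pNSCs against brain NSCs, the genes called in the former went from 1848 to 1788, and the block changed no member's call. Of 45 same-numbered pairs of samples 0 had deviations correlated above 0.1. These deviations carry counting error, and in groups of 2 samples they mirror each other. The check therefore cannot tell whether same-numbered samples shared a mouse or a batch. Of 2360 member values recomputed, 2338 kept their direction and their side of the threshold. The count of members for the interactions was added after seeing the data. Depth limits *Dll3* and *Hes5* in the tissue cells and DRG NCSCs, where *Dll3* had from 0 to 13 counts per sample and *Hes5* from 0 to 4.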
